A study of Mus musculus with 8 samples.

Results

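The 40 genes described here mark T cells. They encode chains of the T cell receptor complex, adhesion and costimulatory receptors, kinases and adaptors that act just inside the receptor, transcription factors of the lineage, homing and survival receptors of naive and memory cells, small families that are abundant in resting lymphocytes, the CD4 and CD8 coreceptors and markers of regulatory T cells. They were chosen by name from the 52636 genes of the files, and all 40 were found. Of them, 36 passed a filter on low values (at least 1 TPM, a level scaled to the length of the gene and to the sum of each library, in 4 or more of the 8 libraries), as did 11433 genes in all.

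The RNA came from mouse spleen cells, mostly lymphocytes and other leukocytes in a normal spleen, that had been cultured for 5 days with sorted colon cancer cells at 1 cancer cell to 50 splenocytes. The splenocytes were from Actin-GFP reporter mice and the strain is given as C57BL/6. The cancer cells came from organoids with the fluorescent tdTomato reporter, had been injected into the spleen and were recovered from liver metastases. They were sorted on tdTomato and on the CD4 protein into trogocytic cells (4 libraries) and non-trogocytic cells (4 libraries, the control). In trogocytosis, one cell takes up pieces of membrane with their proteins from another. Cell number, treatment time, strain and reporters were shared by both groups, and each library holds the RNA of the whole mixture. Nothing in the labels ties the replicates to separate animals, sorts or organoid lines, and no date or batch is given. The p-values therefore reflect the spread between libraries alone, and that spread may be technical.

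A T cell recognises antigen with the alpha and beta chains of its receptor, which have almost no part inside the cell. The signal is passed on by the CD3 gamma, delta and epsilon chains and by CD247, the zeta chain. Lck, a kinase that binds to CD4 and CD8, phosphorylates these chains, Zap70 binds to them, and the adaptor Lat collects the enzymes that act next. Naive T cells in the spleen carry Ccr7, S1pr1 and the interleukin 7 receptor and depend on Tcf7, Lef1, Satb1 and Klf2.

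All 8 libraries held RNA of cancer cells and of leukocytes. Aligned bases came to 1.39 to 1.84 Gb per library, where 10867 to 12362 genes reached 1 TPM. A level of 1 TPM of a transcript of 1 kb corresponds to 2.92 to 4.23 read pairs, so low levels are imprecise. Ptprc, which encodes CD45 of all leukocytes, ranged from 55.8 to 345 TPM in the non-trogocytic and from 98.4 to 253 TPM in the trogocytic libraries. Epcam, an epithelial adhesion molecule, ranged from 249 to 496 TPM and from 319 to 389 TPM.

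The summed level of the 40 T cell genes spread widely within each group. In the non-trogocytic libraries it was 2391, 709.5, 916 and 278 TPM for replicates 1 to 4. In the trogocytic libraries it was 3245, 930.5, 921 and 1909.9 TPM. Replicate 1 of each group and trogocytic replicate 4 were high, non-trogocytic replicate 4 was lowest of all, and the groups overlapped. Of the 40 genes, 31 had their lowest level, ties included, in non-trogocytic replicate 4, and 38 had their highest level in one of the 3 high libraries. The genes ranged from a mean of 179 TPM for Ms4a4b to 0.316 TPM for Cd6. There were 9 genes with a mean of at least 50 TPM and 11 with a mean under 5 TPM, and 12 were listed at 0 in at least 1 library.

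**Figure D1:**
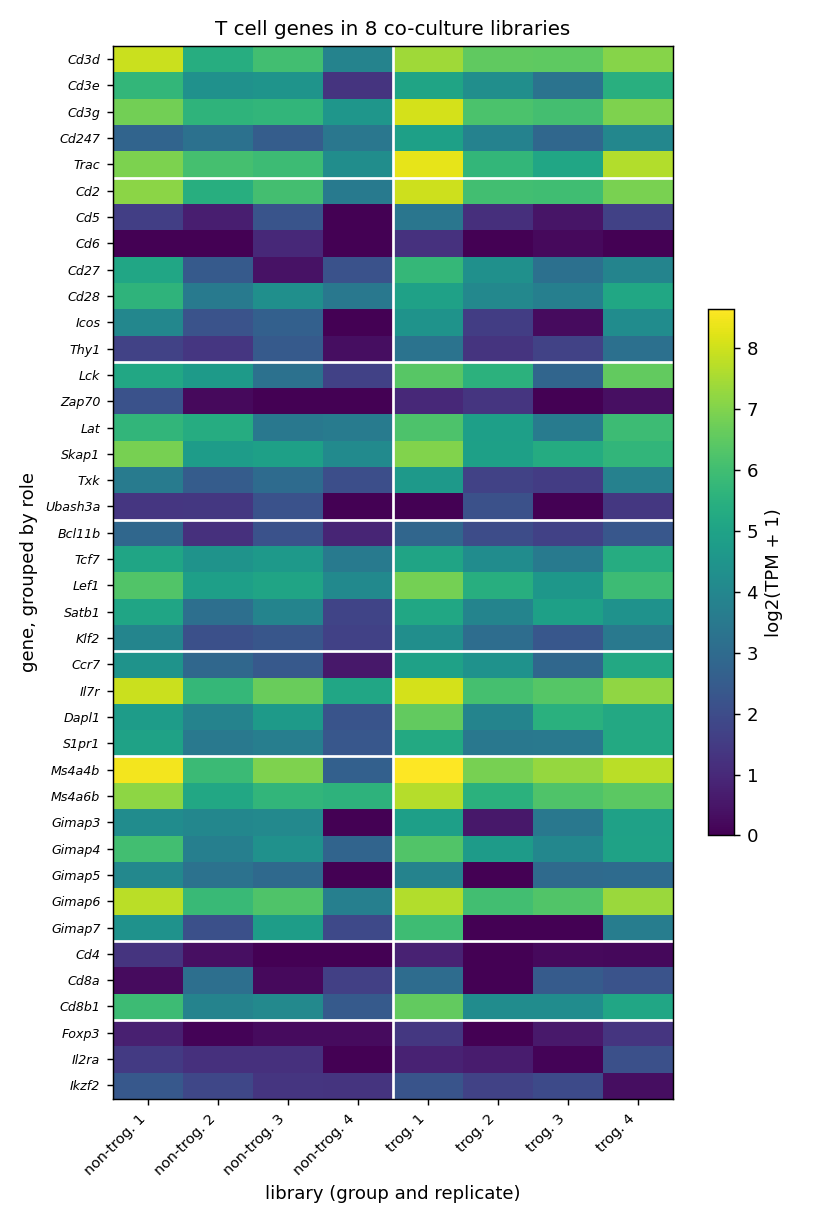
Level of each of the 40 T cell genes (rows, grouped by role with white lines between the roles) in each of the 8 libraries (columns, non-trogocytic left and trogocytic right of the white line), as colour on the log2(TPM + 1) scale. Most rows are brightest in replicate 1 of either group or trogocytic replicate 4, and 31 of 40 are darkest, ties included, in non-trogocytic replicate 4.

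No T cell gene passed the test between the groups. The test was limma on log2(TPM + 1), with Benjamini-Hochberg adjustment over all 11433 genes and a call at an adjusted p below 0.05. It called 0 of 36 T cell genes, where 0.0525% of all tested genes (6 of 11433) were called, 0.0175% as higher and 0.035% as lower in the trogocytic group, and limma's adjusted p was 0.9998 for each of the 36. Without adjustment, limma gave 2 of the 36 a p below 0.05, against 4.59% of all genes. No T cell gene had groups that did not overlap, a separation found in 2.68% of all tested genes. Fold changes on this scale understate the change of low genes.

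Most fold changes nevertheless lay on the trogocytic side. Of the 36 genes, 31 (86.1%) had a log2 fold change, trogocytic minus non-trogocytic, above 0, against 50.7% of all tested genes, and their median was 0.63 against 0.01. These genes vary together over the libraries, so the 31 are not 31 separate observations. A single library moved the median: it was 1.06 without non-trogocytic replicate 1, with limma's unadjusted p below 0.05 for 14 genes, and 0.30 without non-trogocytic replicate 4. It was also 0.32 without trogocytic replicate 1 and 1.02 without trogocytic replicate 3. Fitted with Ptprc as covariate, it was 0.33. Leaving out 1 library in turn changed the sign of 10 of the 36 values and moved each of the other 26 by over 1.5 times. Of these 26, 14 were lowest with non-trogocytic replicate 4 left out and 17 highest with replicate 1 of that group left out. The 5 genes below 0 were Gimap7 (-0.91), Ubash3a (-0.35), Ikzf2 (-0.16), Gimap5 (-0.09) and Il2ra (-0.04). In bulk RNA of this kind, fewer T cells and less of these transcripts per T cell cannot be told apart.

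**Figure D2:**
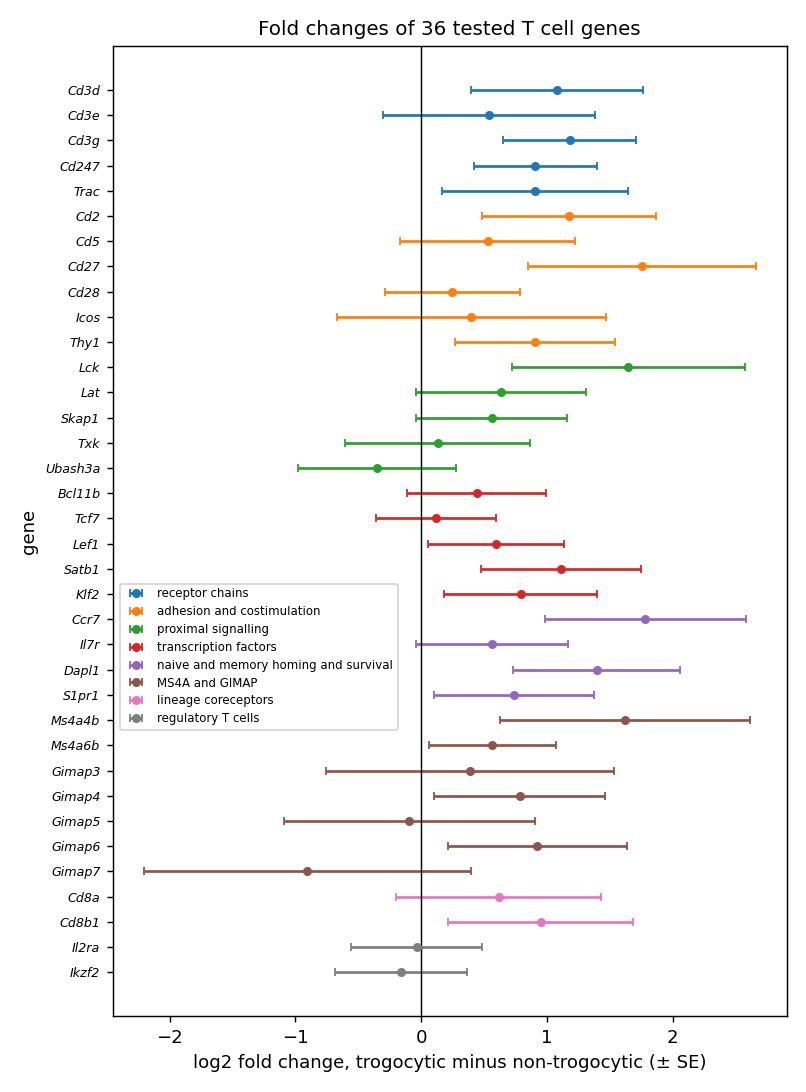
Log2 fold change on the log2(TPM + 1) scale, trogocytic minus non-trogocytic, of the 36 tested T cell genes, with limma's standard error as bars and the role of each gene as colour. The points range from -0.91 (Gimap7) to 1.78 (Ccr7), 31 lie right of 0, and none passed the test after adjustment.

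The 5 receptor chains all lay on the trogocytic side, with log2 fold changes of 0.54 to 1.18 (median 0.91), and none passed the test. Cd3g, the gamma chain (chr9:44969572-44980431, GRCm38, minus strand), stood at 110.4, 48.6, 50.1 and 22.1 TPM in the non-trogocytic and at 274, 72.9, 66.3 and 125 TPM in the trogocytic replicates 1 to 4, and levels of other genes follow in this order. The groups overlapped through non-trogocytic replicate 1, while the other 3 non-trogocytic libraries lay below every trogocytic one. The log2 fold change of Cd3g was 1.18 ± 0.53 (SE), with limma's unadjusted p = 0.0481, the smallest of the T cell genes.

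Cd3d, the delta chain (chr9:44981786-44987339, plus strand), lies head to head with Cd3g. It stood at 245, 40.6, 64.2 and 13.6 TPM in the non-trogocytic and at 169.7, 91.4, 90.6 and 134 TPM in the trogocytic libraries, a log2 fold change of 1.08 ± 0.68 (SE) that became 0.44 when non-trogocytic replicate 4 was left out and 1.795 when replicate 1 of that group was. As for Cd3g, only non-trogocytic replicate 1 reached into the trogocytic range, here above all of it. Cd3e, the epsilon chain (chr9:44998740-45009627, minus strand), stood at 51.9, 19.9, 21.1 and 1.47 TPM, then at 32.3, 18.1, 8.71 and 42.6 TPM. Its groups were interleaved, and its log2 fold change of 0.54 ± 0.84 (SE) became -0.35 without non-trogocytic replicate 4. Cd3d exceeded Cd3e in all 8 libraries, by 2.04 to 10.4 times in TPM.

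Trac, the constant part of the receptor's alpha chain (chr14:54220521-54224206), stood at 121, 68.1, 59.6 and 18.0 TPM, then at 321, 52.1, 33.5 and 202 TPM. Trogocytic replicates 2 and 3 lay below 3 of the 4 non-trogocytic libraries, and the log2 fold change was 0.91 ± 0.74 (SE). Cd247, the zeta chain (chr1:165788681-165877277), was the lowest receptor chain, at 5.89, 8.44, 4.82 and 9.74 TPM, then at 29.4, 13.1, 6.39 and 14.8 TPM. It was the only receptor chain that was not lowest in non-trogocytic replicate 4, where it had the highest value of its group. Its log2 fold change was 0.91 ± 0.49 (SE).

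**Figure D3:**
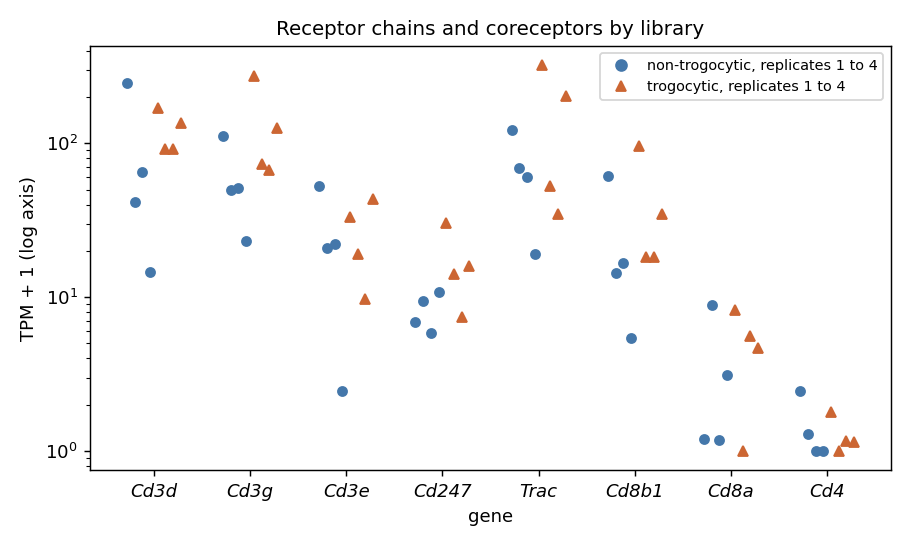
Level of the 5 receptor chains and the 3 coreceptor genes in each library, as TPM + 1 on a log axis, with non-trogocytic libraries as circles and trogocytic libraries as triangles, replicates 1 to 4 from left to right. The groups overlap for every gene, Cd8b1 exceeds Cd8a in all 8 libraries, and Cd4 stays at or below 1.46 TPM.

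The sequences before the starts of the CD3 genes are shown because these genes define the CD3 mean used further on. Gimap6 and Ms4a4b are added as genes that followed that mean closely, chosen after their values were seen. Cd2 followed it more closely than Ms4a4b (Pearson's r = 0.979 against 0.967) and is not shown, so the sequences shown are not a sample of such genes. Each is the stretch of 250 bases upstream of the start that RefSeq gives on GRCm38.p6, 5′ to 3′ on the gene's own strand. It lies at chr9:44981536-44981785 (plus) for Cd3d, chr9:44980432-44980681 (minus) for Cd3g, chr9:45009612-45009861 (minus) for Cd3e, chr6:48708245-48708494 (minus) for Gimap6 and chr19:11443308-11443557 (plus) for Ms4a4b. Capitals mark each match to the ETS core GGAAGT or its reverse complement ACTTCC, a core bound by Ets1 and its relatives.
Cd3d: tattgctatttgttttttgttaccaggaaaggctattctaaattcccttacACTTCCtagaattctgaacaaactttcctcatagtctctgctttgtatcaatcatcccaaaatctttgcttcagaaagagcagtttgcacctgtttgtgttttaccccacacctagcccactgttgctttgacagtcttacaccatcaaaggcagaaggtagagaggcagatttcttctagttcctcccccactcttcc
Cd3g: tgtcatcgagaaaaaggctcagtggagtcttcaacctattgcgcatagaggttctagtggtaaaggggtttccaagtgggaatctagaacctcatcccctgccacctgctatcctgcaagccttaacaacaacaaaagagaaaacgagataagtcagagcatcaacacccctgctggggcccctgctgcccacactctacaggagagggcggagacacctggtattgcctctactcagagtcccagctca
Cd3e: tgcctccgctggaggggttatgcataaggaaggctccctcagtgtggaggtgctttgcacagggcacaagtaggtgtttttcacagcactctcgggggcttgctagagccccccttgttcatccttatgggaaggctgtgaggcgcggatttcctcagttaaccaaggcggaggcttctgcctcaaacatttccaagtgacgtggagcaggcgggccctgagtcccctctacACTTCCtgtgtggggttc
Gimap6: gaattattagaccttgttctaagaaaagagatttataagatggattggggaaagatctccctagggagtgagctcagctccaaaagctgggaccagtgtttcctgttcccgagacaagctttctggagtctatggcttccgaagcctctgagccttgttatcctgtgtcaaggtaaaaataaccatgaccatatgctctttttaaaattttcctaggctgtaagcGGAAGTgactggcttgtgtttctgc
Ms4a4b: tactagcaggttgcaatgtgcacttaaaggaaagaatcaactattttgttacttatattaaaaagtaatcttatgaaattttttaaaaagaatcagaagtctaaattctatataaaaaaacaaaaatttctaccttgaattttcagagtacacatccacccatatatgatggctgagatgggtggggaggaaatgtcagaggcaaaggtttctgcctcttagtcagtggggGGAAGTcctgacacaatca
The match lies at position -18 from the start in Cd3e, -19 in Ms4a4b, -25 in Gimap6 and -199 in Cd3d, and the Cd3g window holds none. The windows of Cd3d and Cd3g both lie within the 1354 bases between the starts of these genes. RefSeq windows were found for 28 of the 40 T cell genes, and 13 of these (46.4%) held the ETS core on either strand, against 5401 of 27025 windows over all genes (about 1 in 5). The 13 are Cd3d, Cd3e, Cd247, Cd5, Lck, Txk, Bcl11b, Il7r, Il2ra, Gimap5, Gimap6, Ms4a4b and Ms4a6b.

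Other motifs were counted in the same 28 windows, on both strands. The TCF/LEF core CTTTGA was in 4 (14.3%, against 14.0% of all windows), the RUNX core TGTGGT in 3 (10.7% against 14.2%) and the GATA core AGATAA in 1 (3.57% against 10.3%). The E-box CAGCTG was in 1 (3.57% against 12.8%), the TATA motif TATAAA in 4 (14.3% against 13.0%) and the GC box GGGCGG in 6 (21.4% against 32.9%). These matches describe letters in a short window and were not tested as binding sites.

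All 6 tested genes of adhesion and costimulation had log2 fold changes above 0, from 0.25 to 1.76 (median 0.72), and none passed the test. Cd2, which binds CD48 on other cells and strengthens their contact with the T cell, stood at 139.8, 42.2, 66.1 and 10.9 TPM, then at 252, 64.6, 62.5 and 119.6 TPM. Trogocytic replicates 2 and 3 had about the level of non-trogocytic replicate 3, and the log2 fold change was 1.18 ± 0.69 (SE). Cd28, the receptor that gives the second signal for activation, stood at 48.1, 10.6, 18.6 and 9.90 TPM, then at 30.1, 15.6, 12.2 and 34.6 TPM. The trogocytic range lay within the non-trogocytic one, with a log2 fold change of 0.25 ± 0.54 (SE).

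Cd27, a receptor of the tumour necrosis factor family, stood at 33.4, 4.47, 0.33 and 3.55 TPM, then at 53.5, 19.1, 8.04 and 14.0 TPM. As with Cd3g and Cd3d, 3 non-trogocytic libraries lay below all trogocytic ones and replicate 1 did not. Its log2 fold change of 1.76 ± 0.91 (SE) was the second largest of the T cell genes. Icos, an inducible costimulator, ranged from 0 to 14.9 TPM and from 0.181 to 20.7 TPM, and Thy1, a surface glycoprotein of mouse T cells, from 0.253 to 4.47 TPM and from 1.44 to 8.77 TPM. Cd5, which dampens receptor signals, ranged from 0 to 3.75 TPM and from 0.409 to 9.4 TPM. Its relative Cd6 was listed at 0 in 5 of 8 libraries, did not exceed 1.38 TPM and was not tested.

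Among the genes of proximal signalling, 4 of 5 tested had a log2 fold change above 0 (median 0.56), and none passed the test. Lck stood at 35.0, 24.9, 8.4 and 2.15 TPM, then at 84.2, 45.9, 5.99 and 94.5 TPM. Trogocytic replicates 1, 2 and 4 lay above every non-trogocytic library and trogocytic replicate 3 lay below 3 of them. Lck had the largest log2 fold change of these signalling genes, 1.65 ± 0.93 (SE).

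Lat stood at 50.9, 40.1, 9.98 and 11.1 TPM, then at 74.9, 28.1, 11.2 and 60.5 TPM. Both groups held values near 10 TPM and above 50 TPM, with a log2 fold change of 0.64 ± 0.68 (SE). Skap1, an adaptor that links the receptor to integrin adhesion, ranged from 16.6 to 116 TPM and from 29.0 to 127 TPM. The kinase Txk, of the Tec family, ranged from 3.22 to 11.1 TPM and from 1.93 to 24.5 TPM, and its log2 fold change of 0.13 ± 0.74 (SE) changed sign when trogocytic replicate 1 was left out (-0.45). Zap70 was listed at 0 in 3 libraries, exceeded 2 TPM only in non-trogocytic replicate 1 (3.5 TPM) and was not tested. Ubash3a, a phosphatase of T cells that dampens receptor signals, was listed at 0 in 3 libraries and did not exceed 3.57 TPM.

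The 5 transcription factors all had log2 fold changes above 0, from 0.12 to 1.11 (median 0.60), and none passed the test. Tcf7, which encodes TCF-1, stood at 33.1, 20.8, 23.7 and 10.5 TPM, then at 32.1, 17.3, 10.8 and 40.1 TPM. It had the narrowest spread of all T cell genes above 0 in every library, 3.83 times from lowest to highest, and its groups covered nearly the same range. Lef1, the partner of TCF-1, stood at 77.4, 28.7, 32.1 and 16.4 TPM, then at 114, 41.6, 22.7 and 59.5 TPM, with a log2 fold change of 0.60 ± 0.54 (SE).

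Klf2, a factor that keeps naive cells in circulation by driving S1pr1, ranged from 2.15 to 14.3 TPM and from 4.14 to 18.1 TPM. Bcl11b, which guards T cell identity, ranged from 0.847 to 6.31 TPM and from 2.16 to 6.29 TPM. Satb1, a chromatin organiser, ranged from 2.43 to 33.0 TPM and from 13.9 to 34.8 TPM. The value of Satb1 is uncertain, because transcripts annotated on the same strand within it, C230085N15Rik at 19.7 TPM and E430014B02Rik at 18.2 TPM on average, had levels like its own mean of 19.5 TPM.

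The 4 genes of naive and memory homing and survival had the highest median log2 fold change of the roles, 1.07, and none passed the test. Ccr7, which guides T cells into lymphoid tissue, stood at 21.0, 6.43, 4.29 and 0.466 TPM, then at 29.9, 19.96, 6.33 and 36.4 TPM. Its groups overlapped, since trogocytic replicates 2 and 3 lay below non-trogocytic replicate 1. The log2 fold change of 1.78 ± 0.80 (SE) was the largest of the T cell genes, with limma's unadjusted p = 0.0487.

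Il7r, the alpha chain of the interleukin 7 receptor, was among the most abundant, at 249, 53.3, 99.9 and 33.7 TPM, then at 273, 67.9, 80.7 and 146 TPM. The 2 first replicates had nearly equal levels, and the log2 fold change was 0.56 ± 0.60 (SE). Dapl1, a gene of naive and memory CD8 T cells, stood at 26.5, 13.6, 25.1 and 3.69 TPM, then at 94.4, 13.9, 43.6 and 36.5 TPM. Trogocytic replicates 1, 3 and 4 lay above every non-trogocytic library, and the log2 fold change was 1.40 ± 0.66 (SE), with limma's unadjusted p = 0.0602. S1pr1, which lets lymphocytes leave lymphoid tissue, ranged from 4.05 to 30.6 TPM and from 9.99 to 37.2 TPM.

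Of the 7 MS4A and GIMAP genes, 5 had a log2 fold change above 0 (median 0.57, range -0.91 to 1.62), and none passed the test. Ms4a4b, a membrane protein with several spans that is found on T cells, was the most abundant T cell gene, at 362, 59.1, 125 and 5.28 TPM, then at 399, 117, 152 and 212 TPM. Its spread within the non-trogocytic group, from 5.28 to 362 TPM, covered most of the trogocytic range, and its log2 fold change was 1.62 ± 0.99 (SE), but 0.50 when non-trogocytic replicate 4 was left out and 2.45 when replicate 1 of that group was. Its relative Ms4a6b ranged from 35.7 to 145 TPM and from 45.4 to 204 TPM.

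The GIMAP genes encode small GTPases that support lymphocyte survival and lie side by side on chromosome 6. Gimap6 stood at 215, 57.4, 75.7 and 12.4 TPM, then at 199, 65.0, 76.8 and 163 TPM in the trogocytic libraries. Gimap4 ranged from 5.86 to 63.9 TPM and from 15.0 to 77.4 TPM. The log2 fold change of Gimap6 was 0.92 ± 0.71 (SE), but 0.20 without non-trogocytic replicate 4. In both genes, non-trogocytic replicate 1 lay within or above the values of trogocytic replicates 1 and 4, and neither group stood apart. Gimap7 stood at 20.2, 3.30, 27.4 and 2.79 TPM, then at 61.5, 0, 0 and 11.7 TPM. Its fold change of -0.91 ± 1.3 (SE) came with a higher mean in TPM for the trogocytic group (18.3 against 13.4), so its sign depended on the scale. Gimap3 and Gimap5 were each listed at 0 in at least 1 library. Members of these families resemble each other and reads may be shared between them, and the read-through gene Gm28053, at 1.42 TPM on average, overlaps Gimap5 and Gimap7, so single values of the low GIMAP genes are uncertain.

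The coreceptor genes were unequal. Cd8b1, the beta chain of CD8, had 60.2, 13.4, 15.6 and 4.45 TPM, then 94.7, 17.3, 17.3 and 33.9 TPM, with a log2 fold change of 0.95 ± 0.74 (SE). Cd8a, the alpha chain, had 0.202, 7.84, 0.171 and 2.13 TPM, then 7.24, 0, 4.60 and 3.66 TPM. Cd8b1 was higher than Cd8a in 8 of 8 libraries, by 1.71 to 299 times in the 7 where Cd8a was above 0. The largest ratios, 299 and 91.4, came from libraries with Cd8a at 0.202 and 0.171 TPM, too low for a precise ratio. The CD8 alpha chain can pair with itself and the beta chain cannot reach the surface without it. The genes lie 35932 bases apart on chromosome 6. Cd4 was listed at 0 in 3 libraries and did not exceed 1.46 TPM, so it was not tested. Its highest value was in a non-trogocytic library, and the trogocytic libraries stood at 0.779, 0, 0.161 and 0.15 TPM.

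Markers of regulatory T cells were low. Foxp3, their defining transcription factor, did not pass the filter, with 0.705, 0.068, 0.189 and 0.199 TPM in the non-trogocytic and 1.64, 0, 0.494 and 1.51 TPM in the trogocytic libraries. Il2ra, the alpha chain of the interleukin 2 receptor, ranged from 0 to 1.75 TPM and from 0.0629 to 3.34 TPM, and Ikzf2, which encodes Helios, from 1.49 to 4.16 TPM and from 0.248 to 3.75 TPM. The log2 fold changes of both were below 0, at -0.04 ± 0.52 and -0.16 ± 0.52 (SE), and neither passed the test.

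The T cell genes varied together over the 8 libraries. As a common measure, the mean log2(TPM + 1) of Cd3d, Cd3e and Cd3g was taken in each library, called the CD3 mean. It was 6.82, 5.13, 5.39 and 3.23 in the non-trogocytic and 6.86, 5.67, 5.29 and 6.5 in the trogocytic libraries. Of the other 33 tested T cell genes, 32 (97%) had a positive Pearson's r with it, against 44.8% of 11430 genes. The median r of the 33 was 0.853, against -0.07 over all of these genes. An exact permutation test over all pairings of the 8 libraries, two-sided, gave 25 of the 33 a positive r with an unadjusted p below 0.05, against 5.76% of all genes. After adjustment over all genes the exact permutation test called 0 of the 33, and 0.0% of all genes, with a smallest adjusted p of 0.0709.

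**Figure D4:**
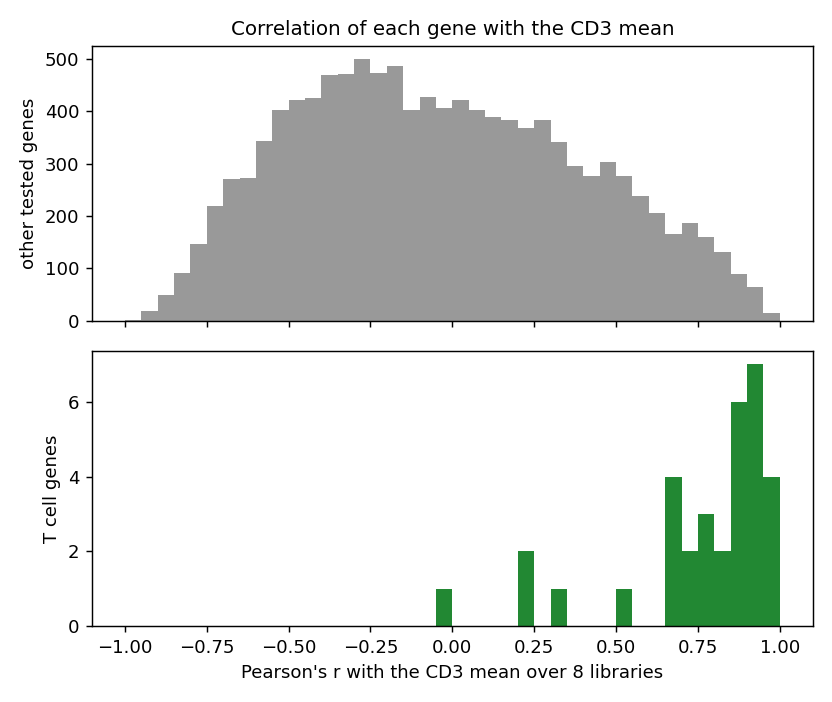
Number of genes by Pearson's r with the CD3 mean over the 8 libraries, for the other tested genes (top) and for the 33 T cell genes outside the mean (bottom). Both panels share the horizontal axis and have vertical axes of their own. The T cell genes gather at the right, with a median of 0.853, while the median of all genes is -0.07.

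The genes that followed the CD3 mean most closely came from several roles. Gimap6 had r = 0.989 (exact permutation p = 0.00057, adjusted 0.111) and rho = 0.881 (exact permutation p = 0.00724, adjusted 0.254). Cd2 had r = 0.979 (exact permutation p = 7.44e-05, adjusted 0.0756) and rho = 0.976 (exact permutation p = 0.000397, adjusted 0.146). Ms4a4b, Cd8b1 and Gimap4 had r of 0.967, 0.952 and 0.946. Gimap4 ranked the 8 libraries exactly as the CD3 mean did, with the smallest adjusted p of 0.0709 in the exact permutation test. By role, the naive and memory genes (median r = 0.931) and the transcription factors (0.918) lay above adhesion and costimulation (0.819), proximal signalling (0.755) and the MS4A and GIMAP genes (0.736). Lowest were the receptor chains outside the mean (0.607), the coreceptors (0.467) and the regulatory T cell markers (0.432), with 2 genes each.

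A few T cell genes did not follow the CD3 mean. Cd8a had r = -0.017 and its neighbour Cd8b1 0.952. Cd247 had r = 0.321, Ubash3a 0.239, Ikzf2 0.205 and Gimap7 0.51, each with an unadjusted exact permutation p of 0.2 or more. All of these except Cd247 and Gimap7 had means under 5 TPM. Among Bcl11b (r = 0.924), Thy1 (0.784) and Cd5 (0.756), which also had means under 5 TPM, the relation to the CD3 mean was closer.

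The co-variation held without the libraries at the ends. Non-trogocytic replicate 4 and trogocytic replicate 1 lay farthest from the median of the CD3 mean. Without them, over 6 libraries, 31 of 33 T cell genes kept an r above 0 and the median r was 0.765, against -0.10 over all genes. The r of Cd2 was then 0.967 and that of Gimap6 0.96, while Dapl1 went from 0.825 to 0.307, Gimap3 from 0.736 to 0.298 and Thy1 from 0.784 to 0.406, so these relations rested largely on the 2 libraries. With the group means removed, the median r was 0.872 and 27 of 33 genes had a positive r with an unadjusted exact permutation p below 0.05, against 7.01% of all genes. Without the first replicates of both groups the median was 0.83, with 13 such genes, against 3.09% of all genes. The CD3 mean showed little correlation with the amount of aligned bases (r = 0.007, rho = -0.071, exact permutation p = 0.987 and 0.882). The same held for the number of genes at 1 TPM or more (r = 0.102, rho = 0.238, exact permutation p = 0.8096 and 0.582). Adjusted values over these 2 measures were 0.987 for both r and 0.882 for both rho. Without the 2 farthest libraries, r was 0.041 and -0.217. With 8 libraries, a moderate relation could be missed. Among all 630 pairs of the 36 tested T cell genes, r ranged from -0.639 to 0.985 with a median of 0.729, and it was above 0 in 601 pairs and above 0.8 in 226.

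**Figure D5:**
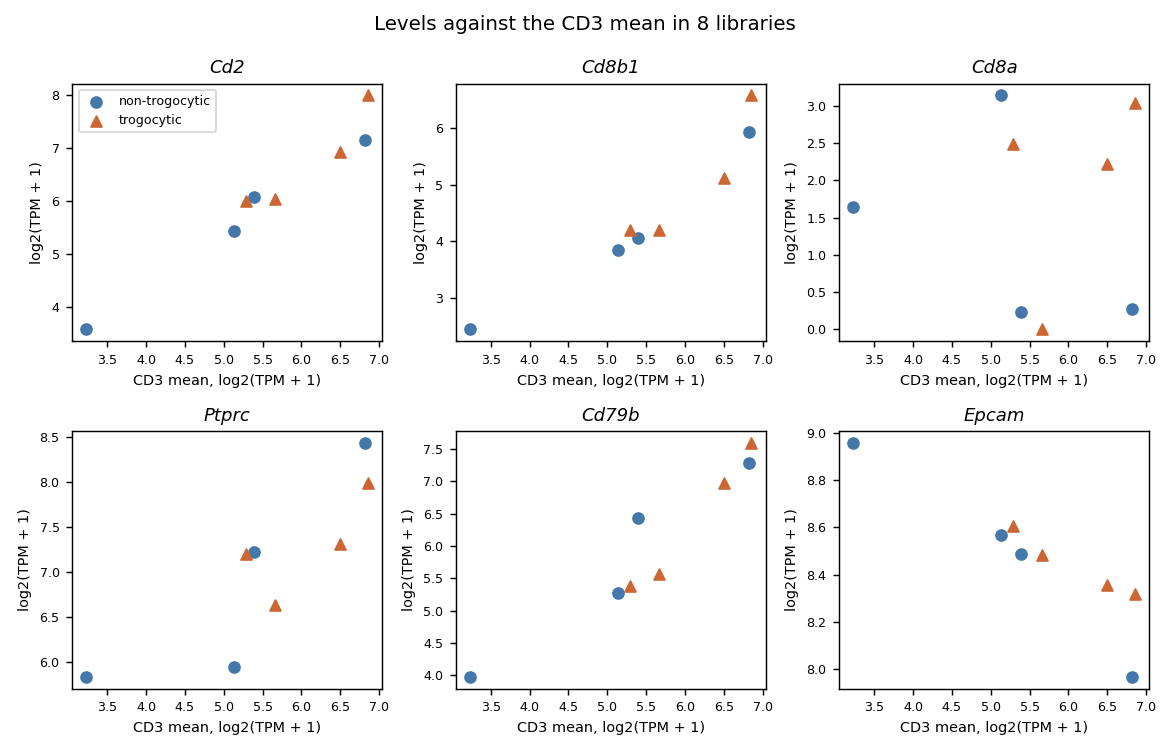
Level of Cd2, Cd8b1, Cd8a, Ptprc, Cd79b and Epcam against the CD3 mean, both on the log2(TPM + 1) scale, in the 8 libraries (circles non-trogocytic, triangles trogocytic). Cd2 and Cd8b1 lie close to a line (r = 0.979 and 0.952), Cd8a does not (r = -0.017), Cd79b of B cells goes up with the CD3 mean (r = 0.949) and Epcam goes down (r = -0.92).

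Many genes of other leukocytes also moved with the CD3 mean, so the co-variation was not limited to T cell genes. Over all genes, 44.8% had an r above 0. Ptprc had r = 0.846. All 4 tested B cell markers had an r above 0, from 0.215 for Fcmr to 0.949 for Cd79b, a chain of the B cell receptor. Nkg7, of cytotoxic cells, had r = 0.921. It was the only NK and cytotoxic marker tested, and cytotoxic T cells are not told apart from NK cells by it. Of 4 neutrophil markers 3 had an r above 0, up to 0.95 for S100a9, while Ly6g, a surface protein of neutrophils, had r = -0.625. Of 7 macrophage and monocyte markers 6 had an r above 0, with 0.571 for Cd68 and 0.337 for Lyz2, the lysozyme of these cells. Of 5 tested plasma cell markers 3 had an r above 0, and the 5 ranged from -0.354 for Sdc1 to 0.816 for Mzb1. The 3 tested erythroid markers, which are not genes of leukocytes, had r of 0.736 to 0.86. Of 8 epithelial markers 7 had an r below 0, over a wide range. Epcam had r = -0.92 (exact permutation p = 0.000422, adjusted 0.102) and rho = -0.952 (exact permutation p = 0.00114, adjusted 0.176), the keratin genes Krt18, Krt19 and Krt8 had r of -0.424, -0.087 and -0.079, and Cdx2 had 0.227. With the part that follows Ptprc removed from every gene and from the CD3 mean, 31 of 33 T cell genes had an r above 0, with a median of 0.653, against 57.9% of all genes and a median of 0.103. Of these 31, 30 had an r above 0 before that removal, and the other was Cd8a (0.272). Ms4a6b and Ikzf2 went to -0.06 and -0.144. Outside the T cell set, r was then 0.853 for mt-Cytb, 0.826 for S100a9, 0.806 for Cd79b and 0.684 for Nkg7, while Epcam stood at -0.704. What remained was therefore not limited to T cell genes either. This last calculation was added after the data had been seen.

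The 10 named genes outside the set with the highest r were Inpp4b, Tspan32, Il2rg, Pde6h, Iglc3, Vcam1, mt-Cytb, Ptprcap, Iglj3 and Arhgdib, with r from 0.979 to 0.954. Il2rg, the common gamma chain of the receptors for interleukins 2 and 7, ranged from 47.4 to 357 TPM in the non-trogocytic and from 129 to 494 TPM in the trogocytic libraries. Iglc3 and Iglj3 belong to an immunoglobulin light chain locus of B cells, and mt-Cytb is encoded by the mitochondrial genome. Their likeness is a correlation over 8 libraries and says nothing of shared function.

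The summed levels of other cells' markers differed in how they ran beside the T cell genes. Of 8 B cell markers, 4 passed the filter, with Cd79b and Ms4a1 the most abundant, and the summed level ranged from 43.5 to 242 TPM in the non-trogocytic and from 63.5 to 288 TPM in the trogocytic libraries, highest in the libraries that were high for T cell genes. Of 8 NK and cytotoxic markers only Nkg7 passed, with Gzma next in level, with sums of 11.4 to 112 and 38.9 to 113 TPM, and Ncr1 and Gzmb were listed at 0 in every library. Of 7 neutrophil markers 4 passed, with sums of 415 to 1041 and 507 to 848 TPM, most of it S100a8 and Ly6g, and Csf3r at 0.

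Of 8 macrophage and monocyte markers 7 passed, with sums of 3209 to 14273 and 1593 to 5065 TPM, most of it Lyz2 and Cd68. Of 6 plasma cell markers 5 passed, with sums of 146 to 293 and 74.6 to 219 TPM, Jchain and Xbp1 the most abundant and Tnfrsf17 at 0, and with the highest sum in non-trogocytic replicate 2. That sum was mostly Xbp1 (133 TPM) and Sdc1 (80.7 TPM). Jchain stood at 59.7 TPM there and was highest in non-trogocytic replicate 1, at 209 TPM. Of 6 dendritic cell markers none passed, with sums of 0.917 to 3.78 and 0 to 0.421 TPM, Itgax and Zbtb46 the most abundant, and Clec9a and Xcr1 at 0. Of 5 erythroid markers 3 passed, with sums of 3.98 to 71.3 and 19.6 to 96.4 TPM, mainly of the globin genes Hba-a1 and Hbb-bs. All 8 epithelial markers passed, with sums of 2851 to 7835 and 4633 to 5882 TPM, mainly of Krt18 and Krt8. Their sum was lowest in non-trogocytic replicate 1, where T cell genes were high, and highest in non-trogocytic replicate 2. The part of these cells in the T cell values was not tested.

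Set against Ptprc, Cd3d and Cd3g differed less between libraries. The ratio of Cd3d to Ptprc in TPM was 0.710, 0.675, 0.432 and 0.243 in the non-trogocytic and 0.670, 0.929, 0.622 and 0.849 in the trogocytic libraries. The ranges still overlapped, with 2 trogocytic values below the highest non-trogocytic one. For Cd3g the ratios ranged from 0.320 to 0.809 and from 0.455 to 1.08. For Il7r they ranged from 0.603 to 0.886 and from 0.554 to 1.08, and for Lef1 from 0.216 to 0.477 and from 0.156 to 0.450.

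Further genes of the T cell pathway were taken from a list. Of 73 listed genes, 71 were found and 53 passed the filter. Among these 53, limma called 0 in either direction, where 0.0525% of all tested genes were called. Without adjustment, limma gave 4 of the 53 a p below 0.05, against 4.59% of all genes. Of the 53, 38 had a log2 fold change above 0 (median 0.35), where 50.7% of all genes did. With the CD3 mean, 47 had a positive r (median 0.571), against 44.8% of all genes. Of the 47, 18 had an unadjusted exact permutation p below 0.05, against 5.76% of all genes. Sh2d1a, which encodes the signalling adaptor SAP, had the smallest p of them, with a log2 fold change of 3.12 ± 0.94 (SE) and limma's unadjusted p = 0.00734 and adjusted p = 0.9388. It stood at 6.99 ± 12.3 TPM (SD, n = 4) in the non-trogocytic and 30.4 ± 16.3 TPM (SD, n = 4) in the trogocytic libraries. Its groups overlapped, since non-trogocytic replicate 3 (25.4 TPM) lay above trogocytic replicates 2 and 3 (13.0 and 21.9 TPM). The r of Sh2d1a with the CD3 mean was 0.47, and -0.235 without the 2 farthest libraries.

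The beta chain constant genes differed from each other. Trbc1 stood at 161, 217, 149.7 and 209 TPM in the non-trogocytic and at 249.8, 289, 216 and 274 TPM in the trogocytic libraries, with a log2 fold change of 0.49 ± 0.19 (SE) and limma's adjusted p = 0.9998. Its range overlapped by a single pair of values, and its r with the CD3 mean was 0.111. Trbc2 stood at 176, 79.5, 47.1 and 26.3 TPM, then at 225, 83.8, 93.6 and 188 TPM, with r = 0.937. Reads of these near-identical genes can be assigned to either, so their separate levels are uncertain. Nfatc1, a factor activated by calcium signals, stood at 1.54 ± 0.87 and 4.2 ± 1.55 TPM (SD, n = 4 each), with limma's adjusted p = 0.9998. Its groups did not overlap, a separation found in 2.68% of all tested genes. The most abundant of the list were Trbc1, Il2rg and Ets1, and Ets1, a transcription factor of lymphocytes, stood at 146.8 ± 63.5 and 228 ± 159 TPM (SD, n = 4 each).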

How the data were processed

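Polyadenylated RNA of 8 co-cultures was sequenced as paired-end reads of 100 bp from low-input libraries, per the labels' protocols. HISAT2, StringTie 1.3.3, DESeq version 2, GRCm38 and mm10 appear in the submitters' processing notes. Which annotation release and which strand setting were used is not given in the sources used here. Per the file headers, each deposited table gives coverage, FPKM and TPM per gene: the deposited coverage is mean read depth, the deposited FPKM is scaled by length and library, and the deposited TPM has an equal total in each library. Read counts were not analysed here, so no count model was used. Aligned bases were estimated from coverage and FPKM of genes with 1 annotated transcript.

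TPM was summed per gene ID. Genes with at least 1 TPM in 4 or more libraries were tested with limma 3.58.1 (R 4.3.3) on log2(TPM + 1) with a mean-variance trend, two-sided, with Benjamini-Hochberg adjustment over 11433 genes. Both scripts for the fit and for the correlations were checked on simulated data. Correlations with the CD3 mean used every pairing of the 8 libraries (exact permutation in numpy 2.4.6, with ranks from scipy 1.17.1), adjusted over 11430 genes. The alternatives covered FPKM, a pseudocount of 0.1, a minimum of 5 TPM, no filter, median-of-ratios scaling, no trend, Ptprc as a covariate or in place of the CD3 mean, a replicate block and each library left out. All 40 genes are accounted for. Of other genes, the text names the 10 highest in r with a mean of at least 5 TPM and no clone name, the 3 with the smallest p and the 3 most abundant of the pathway list, and the most abundant and absent markers of each cell type. Some other markers are named for their r or for their level in single libraries. The genes and lists were chosen with earlier results of these data known. Promoter windows are those of RefSeq, the first listed per gene.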

Additional observations from a re-analysis of the deposited data

Results flagged for a closer look

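In 3 of the 80 combinations of gene and group (40 genes in 2 groups of 4 libraries), 1 library stood far from the other 3 on the log2(TPM + 1) scale. Chance alone would set about 1 in 20 such groups apart. Cd6 was at 0.973 TPM in non-trogocytic replicate 3 and listed at 0 in the other 3 non-trogocytic libraries. Zap70 was at 3.5 TPM in non-trogocytic replicate 1, with the next value at 0.161 TPM. Gimap3 was listed at 0 in non-trogocytic replicate 4 (0.0 TPM), with the nearest value at 15.0 TPM. Cd6 and Zap70 had means under 1 TPM, where single reads weigh heavily.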

How the results depend on the processing

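No T cell gene was called in the group comparison under any of the 17 alternatives, with a smallest adjusted p of 0.6299 in limma (without non-trogocytic replicate 1), and their median log2 fold change stayed above 0, from 0.30 to 1.06. The 6 genes called among all 11433 became 3 with FPKM, 1 without a filter, 1 without the mean-variance trend, 0 without the first replicates of both groups, 0 with a replicate block and 0 to 3 with 1 library left out. With the block, 5 T cell genes had limma's unadjusted p below 0.05. The labels do not say whether the numbers pair the libraries, and so few libraries cannot settle it. Same-numbered libraries had correlations of deviations from -0.093 to 0.235, and 3 of 8 correlated best with their own number. Genes of the T cell set with an unadjusted exact permutation p below 0.05 against the CD3 mean fell from 25 to 13 without the first replicates and to 15 with Ptprc in place of the CD3 mean, where the median r was 0.701. It was 0.653 after the part that follows Ptprc was removed, an alternative added after the data had been seen. With replicate means removed the median was 0.881, but only 16 pairings within replicate numbers exist and their smallest exact permutation p is 0.125, so the count was 0. With a minimum of 5 TPM, 1 T cell gene was called among 4 of 7839 genes (0.051%), with a smallest adjusted p of 0.0486 (exact permutation). Of 602 combinations of gene and alternative, 568 kept their direction, and 25 of the 36 genes kept it throughout. With Ptprc as a covariate, the log2 fold change was -0.09 for Cd28, -0.19 for Gimap3, -0.18 for Icos, -0.09 for Tcf7 and -0.22 for Txk. Without the first replicates it was -0.105 for Cd8a, 0.16 for Il2ra and -0.185 for Txk. With 1 library left out it ranged from -0.011 to 0.712 for Cd28, -0.35 to 1.12 for Cd3e, -0.037 to 0.92 for Cd5, -0.63 to 1.355 for Gimap3, -0.95 to 0.73 for Gimap5, -0.34 to 1.19 for Icos, -0.39 to 0.25 for Ikzf2, -0.43 to 0.245 for Il2ra, -0.18 to 0.45 for Tcf7 and -0.45 to 0.59 for Txk. The cause of these shifts was not tested. Depth limits Cd6, Zap70, Cd4, Foxp3 and Il2ra most, since their levels near 1 TPM rest on few read pairs.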
